A study of Mus musculus with 5 samples.

Results

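A block of chromosome 10 with dense 4C-seq reads from the Cebpa promoter, which lies on chromosome 7, was described before and after adipocyte differentiation. The block spans chr10:117350001-117800000 in mm10 and holds 225 windows of 2 kb. It was selected on the reads of these same libraries, by its dense listed windows, so its listing and its reads against the rest of the genome are a description with no test. Only differences between the states were tested. At least 1 library listed 133 of the 225 windows, out of 29870 windows listed anywhere in the genome.

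3T3-L1 is a mouse embryo cell line that can be turned from preadipocytes into adipocytes. 3T3-L1-PRE are the undifferentiated preadipocytes, and 3T3-L1-AD are cells at day 7 after induction with IBMX, dexamethasone and insulin. Both states come from this 1 line, grown in DMEM with fetal bovine serum, and each has 2 libraries, called PRE1 and PRE2 (replicates 1 and 2 of 3T3-L1-PRE) and AD1 and AD2 (replicates 1 and 2 of 3T3-L1-AD). The labels do not say whether replicates are separate cultures, so the spread between them may be technical. The titles carry the words mRNA-Seq, whereas the molecule is genomic DNA and the assay is 4C-seq, which gives no expression, so markers of the cell types could not be checked. The inguinal fat sample was not analysed here.

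4C-seq ligates cross-linked, digested chromatin, and then amplifies and sequences whatever was joined to 1 viewpoint. Reads on the viewpoint's own chromosome are cis, and reads on other chromosomes are trans. Cebpa encodes a transcription factor that drives adipocyte differentiation. The block holds Mdm2, the E3 ligase that marks p53 for degradation, which was first isolated as a gene amplified on double minute chromosomes of a transformed mouse 3T3 line. A trans read count depends on how often a locus is ligated to the viewpoint and on how many DNA copies of the locus a cell has. No input DNA was analysed here, so the 2 cannot be told apart.

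The reading primer of the viewpoint lies at chr7:35117558-35117577, plus strand, and is shown because every read starts from it, with the DpnII site in capitals.
Reading primer: atctggcccagagagcGATC
Its 20 bases had at least 5 mismatches to every position of the block on either strand, and 8 positions had exactly 5. Of 5582 trans bins of 450 kb, 89.6% held a position with as few mismatches. The second primer also had at least 5 mismatches throughout the block, as few as in 50.5% of bins.

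PRE1 listed 35 of the 225 windows with 28436 reads, and PRE2 listed 101 with 44560 reads. AD1 listed 19 windows with 6255 reads, and AD2 listed 40 with 38972 reads. The means were 68.0 ± 46.7 windows in preadipocytes and 29.5 ± 14.8 in adipocytes (SD, n = 2 each), and the states overlapped, since AD2 lay above PRE1. Libraries listed 9453610, 16888137, 6535263 and 10173531 reads in the same order, and the library with the most reads also listed the most block windows. The lowest count that a library lists was 13, 11, 2 and 2 reads, so an unlisted window may hold up to 12, 10, 1 and 1 reads. With a minimum of 13 reads in every library, 35, 100, 13 and 26 block windows were left, and PRE1 and PRE2 then lay above AD1 and AD2. The same order held outside the block, where 2847, 9287, 1230 and 2279 trans windows were left, so it is no trait of the block. Thinning each library to 6535263 reads before that minimum gave 35, 86, 13 and 24.

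The block's share of trans reads was 1.59% (95% Wilson interval 1.57 to 1.61) and 1.40% (1.39 to 1.42) in PRE1 and PRE2. It was 0.383% (0.374 to 0.393) and 1.49% (1.47 to 1.50) in AD1 and AD2. The intervals take each read as independent and hold no spread between libraries. The reads are PCR products that carry no molecular identifiers, so the intervals may be too narrow even for counting error. AD1 stood apart from the other libraries, and the means of 1.50% ± 0.133 in preadipocytes and 0.934% ± 0.780 in adipocytes differed by less than the SD of the adipocyte libraries. An exact two-sided permutation test was also run, but nothing is read from it, since 2 libraries against 2 cannot give a p below 0.333.

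The share of windows that were listed was far above that of other trans chromatin in all 4 libraries. In preadipocytes, 15.6% and 44.9% of the block's windows were listed, against 0.227% and 0.760% of the other trans windows. In adipocytes, the values were 8.44% and 17.8% against 0.137% and 0.362%. The ratios were 68.4 and 59.0 in preadipocytes and 61.6 and 49.2 in adipocytes, and the choice of the block on listed windows favours high ratios. By number of listed windows the block ranked 1 among trans bins of 450 kb in each library, and the next bins had 6, 16, 5 and 8 windows. By reads it ranked 1 in PRE1, PRE2 and AD2, but 59 in AD1. The lowest deposited q-value of a block window was 1 in every library, whereas 4, 0, 23 and 58 other trans windows had a q-value of at most 0.05.

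Chromosome 10 held 179, 595, 117 and 245 listed windows in PRE1, PRE2, AD1 and AD2. The block made up 19.6%, 17.0%, 16.2% and 16.3% of them. It held 24.6%, 19.5% and 34.4% of the chromosome's reads in PRE1, PRE2 and AD2, and 7.83% in AD1.

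The median listed window of the block had 706 and 266 reads in PRE1 and PRE2, against 261 and 179 in listed trans windows elsewhere. It was 43 and 134.5 reads in AD1 and AD2, against 73 and 13 elsewhere. The block's windows were thus above other trans windows in 3 libraries and below them in AD1. Windows with at least 1000 reads numbered 13, 17, 2 and 12, or 37.1%, 16.8%, 10.5% and 30.0% of those listed, against 22.1%, 6.90%, 22.9% and 12.1% elsewhere in trans. Windows under 13 reads numbered 0, 1, 6 and 14, or 0%, 0.990%, 31.6% and 35.0%, against 0%, 2.49%, 28.4% and 49.7%. The top 5 windows of a library took 37.4% and 18.7% of the block's reads in preadipocytes and 86.2% and 53.7% in adipocytes, shares that also depend on how many windows a library lists.

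The windows with the most reads were different in each library. In PRE1 it was chr10:117698001-117700000 with 3487 reads, in Mdm2. This window had 51 reads in PRE2 and none listed in adipocytes. In PRE2 it was the intergenic window chr10:117716001-117718000 with 1829 reads, which also had 1138 reads in PRE1 and 1466 in AD2. The highest window of AD1, chr10:117544001-117546000 with 1831 reads, had 1245 and 43 reads in preadipocytes and was not listed in AD2. The highest of AD2, chr10:117510001-117512000, had 5273 reads, with 839 in PRE1 and none listed in the other 2 libraries.

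In bins of 50 kb, all 9 bins held a listed window in each of the 4 libraries. The counts per bin ran from 2 to 6 and from 7 to 18 in preadipocytes, and from 1 to 4 and from 1 to 6 in adipocytes. The longest gap between listed windows was 36000 and 16000 bp in preadipocytes and 68000 and 52000 bp in adipocytes. The 9 bins to the left held 0, 6, 1 and 2 listed windows in all, and the 9 bins to the right held 3, 3, 2 and 1. Reads in those flanks were at most 2409 in any library and side, against 6255 to 44560 inside. The flanks held fewer listed windows than the block in every library, which the choice of the block favours.

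The outermost listed windows were taken within the set limits of the block, which bound where they can lie. On the left, the first window was chr10:117384001-117386000 in PRE1 and AD1, with 1291 and 21 reads. In PRE2 it was chr10:117360001-117362000 with 204 reads, and in AD2 chr10:117390001-117392000 with 2 reads. The nearest listed window beyond was 14000 bp further in PRE2, at the far end of Cpsf6 with 568 reads. It was 94000 bp, 156000 bp and 1646000 bp further in AD1, AD2 and PRE1, with 51, 7 and 465 reads. The 14000 bp of PRE2 are fewer than its longest gap inside the block, 16000 bp, so this gap alone marks no left edge. By bins of 50 kb, listed windows in PRE2 fell from 7 in the block's first bin to 1 in the adjoining bin outside. On the right, the last windows were chr10:117762001-117764000 (979 reads), chr10:117790001-117792000 (538 reads), chr10:117758001-117760000 (4 reads) and chr10:117782001-117784000 (5 reads), all in Nup107. Beyond it the nearest listed window lay 98000 bp, 28000 bp, 82000 bp and 294000 bp further with 14, 876, 973 and 2409 reads, and those at 28000 and 82000 bp were in Rap1b, a small GTPase gene.

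In all, 5 protein-coding genes lie in or across the block, with 6 lncRNA genes, 3 pseudogenes and 1 snRNA gene. Mdm2 (chr10:117688875-117710758, minus strand) overlaps 12 windows. PRE2 listed 11 of them with 7257 reads, and PRE1 listed 2 with 4656 reads. AD1 listed 2 with 470 reads, and AD2 listed 3 with 20 reads. Per kb of windows, Mdm2 had 194 and 302 reads in preadipocytes and 19.6 and 0.833 in adipocytes, against block averages of 63.2, 99.0, 13.9 and 86.6. Mdm2 was thus above the block's average in PRE1, PRE2 and AD1, and far below it in AD2. Beside it, the longest run of adjacent listed windows in PRE2 had 14 windows, chr10:117690001-117718000, and covered most of Mdm2.

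Cpm (chr10:117629500-117687352, plus strand), which encodes a membrane carboxypeptidase, overlaps 30 windows. It had 535 and 5411 reads in 2 and 19 listed windows in preadipocytes, and 960 and 9132 reads in 4 and 10 windows in adipocytes. Here the library with the most reads was AD2, in contrast to Mdm2. Slc35e3, of a nucleotide-sugar transporter family, was listed in PRE2 alone, with 6 of 8 windows and 1864 reads. Nup107, a subunit of the nuclear pore, had 1995 and 2416 reads in preadipocytes and 4 and 5814 in adipocytes. Cpsf6, a subunit of cleavage factor I in pre-mRNA 3' end processing, was the least listed, with 1 window inside the block and 1 beyond it in PRE2, and 0 in the other 3 libraries. Of the 10 other annotated genes 7 had a listed window. Of all block windows, 59.1% were listed in at least 1 library, so nothing is read from this count. Among these genes, the windows of Gm32235, a lncRNA gene, had the most reads in any library, with 4966 in AD2 and 294 in PRE2. Of these, 4756 and all 294 were in chr10:117560001-117562000, of which the gene covers only a small part. The highest of these genes was Gm51783 in PRE1 with 1122 reads and Gm32319 in PRE2 with 1163. The order of the protein-coding genes by reads was not the same in the 4 libraries.

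The 86 windows that overlap protein-coding genes were 38.2% of the block and held 17.1%, 45.5%, 36.8% and 40.0% of the listed windows in PRE1, PRE2, AD1 and AD2. The 125 windows between Cpsf6 and Cpm, which hold no protein-coding gene, were 55.6% of the block and took 71.4%, 48.5%, 57.9% and 52.5%. Windows without a protein-coding gene were listed more often than the genic ones in PRE1 (20.9% against 6.98%) and less often in PRE2 (39.6% against 53.5%), and AD1 (8.63% against 8.14%) and AD2 (17.3% against 18.6%) showed little difference.

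At gene starts, the window of the Mdm2 start, chr10:117710001-117712000, had 1483 reads in PRE2 and 2 reads in AD2. That of Cpm had 853 reads in AD2, and that of Slc35e3 had 646 reads in PRE2. The windows of the Cpsf6 and Nup107 starts were listed in no library. The Mdm2 start window has 1 DpnII site, in the gene's first intron. The fragment end that runs from that site further into the intron, to the first NlaIII site, is shown because the window has no other DpnII site, with GATC and CATG in capitals.
chr10:117710334-117710521, minus strand: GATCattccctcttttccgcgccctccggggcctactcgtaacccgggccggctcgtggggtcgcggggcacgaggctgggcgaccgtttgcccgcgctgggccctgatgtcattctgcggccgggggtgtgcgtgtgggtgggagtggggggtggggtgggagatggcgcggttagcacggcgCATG
The RefSeq promoter of Mdm2 (chr10:117710709-117711008, minus strand, mm10) lies within that window and holds neither GATC nor CATG. On either strand, GATC is in 48.0% of 32851 promoters of this length and CATG in 61.1%. The part of it before the gene's start is shown in lower case throughout, since it holds no site to mark.
Mdm2, chr10:117710759-117711008, minus strand: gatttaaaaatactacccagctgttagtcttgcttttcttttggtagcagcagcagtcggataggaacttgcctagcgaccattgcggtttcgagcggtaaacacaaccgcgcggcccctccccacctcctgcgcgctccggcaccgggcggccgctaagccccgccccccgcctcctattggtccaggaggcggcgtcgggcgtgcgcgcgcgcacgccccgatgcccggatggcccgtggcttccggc

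Only 1 window, chr10:117462001-117464000, was listed in all 4 libraries. It is intergenic, between Cpsf6 and Cpm, and had 2203 and 415 reads in preadipocytes and 3 and 2320 reads in adipocytes. All but its longest fragment end and 1 in which a CATG overlaps the GATC are shown because it is the window that the libraries share, with GATC and CATG in capitals. Reads were counted per window, so they were not assigned to single ends here.
chr10:117462012-117462300, plus strand: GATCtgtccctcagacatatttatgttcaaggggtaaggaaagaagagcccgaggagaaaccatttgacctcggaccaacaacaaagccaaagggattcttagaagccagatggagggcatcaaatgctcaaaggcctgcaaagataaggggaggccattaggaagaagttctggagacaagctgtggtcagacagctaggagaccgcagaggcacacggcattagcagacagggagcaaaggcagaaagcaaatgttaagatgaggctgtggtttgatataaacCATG
chr10:117462665-117462696, plus strand: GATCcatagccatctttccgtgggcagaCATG
chr10:117462965-117463089, plus strand: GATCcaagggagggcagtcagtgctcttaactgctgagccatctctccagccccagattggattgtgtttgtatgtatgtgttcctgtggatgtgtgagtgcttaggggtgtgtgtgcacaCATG
chr10:117462938-117462968, minus strand: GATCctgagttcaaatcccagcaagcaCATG
chr10:117463086-117463114, minus strand: GATCtctgacccccacgcacaatggCATG
chr10:117463124-117463163, plus strand: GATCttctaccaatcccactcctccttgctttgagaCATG
chr10:117463288-117463306, minus strand: GATCcccgcagcaccCATG
chr10:117463776-117463820, plus strand: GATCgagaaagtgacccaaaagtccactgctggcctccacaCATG

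A further 14 windows were listed in 3 libraries, 31 in 2 and 87 in 1, and 92 were listed in none. PRE2 alone listed 58 of the 87. Of the 14, 8 were listed in PRE1 and PRE2 and 6 in AD1 and AD2. Those 6 include chr10:117654001-117656000 in an intron of Cpm, with 251 reads in PRE2 and 909 and 3189 in adipocytes, and chr10:117706001-117708000 in an intron of Mdm2, with 1631 reads in PRE2 and 306 and 3 in adipocytes. They also include chr10:117440001-117442000 (17, 28 and 51 reads in PRE2 and adipocytes), chr10:117554001-117556000 (738, 5 and 2718), chr10:117646001-117648000 (141, 43 and 88) and chr10:117680001-117682000 (28, 4 and 578), the last 2 in Cpm. The 8 others were chr10:117384001-117386000, chr10:117390001-117392000, chr10:117442001-117444000, chr10:117526001-117528000, chr10:117544001-117546000, chr10:117648001-117650000 in Cpm, chr10:117696001-117698000 in Mdm2 and chr10:117716001-117718000. By state, 31 windows were listed in both, 82 in preadipocytes alone and 20 in adipocytes alone, or 23.3%, 61.7% and 15.0% of the 133. Of the 17515 other trans windows listed in any library, the shares were 4.44%, 65.7% and 29.9%, so most were in preadipocytes alone there too. Of the 20, 8 had at most 10 reads, fewer than either preadipocyte library lists, so their absence from preadipocytes is not known.

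Replicates shared part of their lists. PRE1 and PRE2 shared 23 windows, 65.7% of the list of PRE1 and 22.8% of that of PRE2, where PRE2 listed 44.9% and PRE1 15.6% of all block windows. AD1 and AD2 shared 8, 42.1% and 20.0% of their lists, where AD2 listed 17.8% and AD1 8.44% of all block windows. Between states, PRE2 shared 25 windows with AD2, 24.8% and 62.5% of their lists, so the largest overlap by number was between states. Elsewhere in trans, the replicates shared 3.27% and 0.976% of their lists in preadipocytes and 13.6% and 5.17% in adipocytes, and PRE2 and AD2 shared 6.61% and 13.9%. By number, PRE2 and AD2 had the largest overlap there too, with 630 windows, against 93 for PRE1 and PRE2 and 234 for AD1 and AD2.

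Reads at windows that replicates shared did not follow each other. Over 23 windows Pearson's r of log2 reads was 0.04 between PRE1 and PRE2, and over 8 windows it was -0.48 between AD1 and AD2. The larger count was a median of 2.07 times the smaller in preadipocytes and 71.5 times in adipocytes. These ratios are of raw reads and were not scaled to the library totals, which differed between replicates. Windows of 1 pair of libraries share depth and are not independent replicates. By listed windows in the 9 bins of 50 kb, Spearman's correlation was 0.15 between PRE1 and PRE2, 0.73 between AD1 and AD2, and 0.53 between PRE2 and AD2. It was 0.42 between PRE2 and AD1, 0.10 between PRE1 and AD1 and 0.01 between PRE1 and AD2.

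Of the 225 windows, 30 were listed in both replicates of a state and could be tested between states, and 195 could not. Of the 30, 14 were listed in no adipocyte library and 1 in no preadipocyte library, and these could only be higher in the state that lists them. With edgeR's quasi-likelihood test, 13.7% of 1998 such windows of the genome were called at an FDR of 0.01, 7.21% higher and 6.51% lower in adipocytes. In the block 2 of 30 were called, or 6.67%, both lower in adipocytes, and nothing is read from this count. They were chr10:117534001-117536000, with 143 and 75 reads in PRE1 and PRE2, and chr10:117748001-117750000, with 62 and 11 reads. Neither was listed in AD1 or AD2, so both entered the test only through preadipocytes. The count was 17 with DESeq2, or 56.7% against 69.0% of all 1998 windows, and 6 with library totals, or 20.0% against 23.0%. It was 0 with RLE normalization (6.46% of all windows called) and with the replicate block (0.400%). It was also 0 with counts under 13 set to 0 and with all windows read in at least 2 libraries (0% each). Leaving out a library left 1 in its state, with the spread from the other state alone, so no count is given for those fits.

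As 1 bin, the block had a log2 fold change of 1.17 in adipocytes over preadipocytes with an approximate standard error of 8.03 (edgeR, adjusted p = 0.956), beside a median of -2.29 over 3344 trans bins, and the sign turned to -0.68 with library totals in place of TMM. Of all bins 0% were called at an FDR of 0.05 by edgeR, 8 had an unadjusted p of at most 0.05, and DESeq2 called 27. For the block as 1 bin no difference between the states was detectable with 2 libraries each, which does not show that they were alike.

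Listed windows had somewhat more DpnII sites, with a mean of 5.11 in the 133 listed and 4.21 in the 92 unlisted windows. NlaIII sites differed little, with means of 9.24 and 9.09. The block had 4.74 DpnII sites per window, against 5.03 in all trans windows with sequence. Windows listed in no library had a mean of 5.65 ± 2.41 fragment ends (SD, n = 92), those in 1 library 6.40 ± 2.62 (n = 87), in 2 libraries 6.90 ± 1.85 (n = 31) and in 3 libraries 6.93 ± 2.13 (n = 14). Of 21 windows with 1 or 2 fragment ends, 33.3% were listed in some library, and of 95 with 7 to 12 ends, 66.3%. All 225 windows had a fragment end. GC content was 44.1% in the 92 unlisted and 45.5% in the 133 listed windows, and bases marked as repeats were 37.2% and 30.4%. The spreads of the groups overlap, and these values are a description.

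Of 12 genes from Cct2 to Cdk4 on chromosome 10, 6 had a listed window in any library. The share of all genes with a listed window is not given here, so nothing is read from this count. Lyz1, a lysozyme gene, is the nearest protein-coding gene on the left outside Cpsf6. It had 63 reads in PRE2, in a window of which it covers only a small part, and 51 in AD1. Rap1b had 876 and 973 in the same libraries. Cct2, Yeats4, Mdm1, Il22, Ifng and Dyrk2 had none. Further along, Cdk4, a cell cycle kinase gene, had 778 reads in 2 of its 3 windows in PRE1, a larger share of windows than any protein-coding gene of the block had there, and 76 reads in AD2, and Hmga2 had 13 in AD2. Of 5 genes of the p53 pathway on other chromosomes, Trp53, Cdkn1a, Ccng1 and Ppm1d had no listed window. Mdm4, the relative of Mdm2, had 1 with 9 reads in AD2. Outside the block, 17515 of 1252643 trans windows were listed in at least 1 library, and nothing is read from the p53 count either.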

How the data were processed

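The 4 libraries of 4C-seq from the Cebpa promoter were grouped by state as labelled. The authors cut chromatin with DpnII and NlaIII, mapped reads to mm10 and, with r3Cseq, deposited a raw read count per 2-kb window. RPMs, a signal scaled by the authors in r3Cseq, was not used. For each library alone, the authors computed a p-value and a q-value per window, and the q-value is given once. Windows that a library does not list counted as 0.

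Block members and gene lists were chosen with earlier results of these data known. Windows were named if listed in 3 or 4 libraries, highest, first or last in a library, nearest outside an edge, at a gene start, or called by edgeR. Genes were those in the block and fixed lists of chromosome 10 neighbours and the p53 pathway. Reads of a gene are those of all windows that overlap it, in whole or in part. Chromosome 7 is cis. Windows that both libraries of either state list, and trans bins of 450 kb with reads in at least 2 libraries, were tested with edgeR 4.0.16 (TMM, Benjamini-Hochberg). The procedure was first tested on simulated data, where recovery of changes was required only at a spread smaller than that of these data. Library sizes were all listed reads for windows and trans reads for bins. The approximate standard error is the log2 fold change over the square root of F. Sites, GC content and genes came from GRCm38.p6, the build of the files, with RefSeq annotation. Alternatives were DESeq2 1.42.0, other normalizations, filters and minimums, a replicate block and each library left out. R 4.3.3, Python 3.11.15, scipy 1.17.1 and statsmodels 0.14.6 were used.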

Additional observations from a re-analysis of the deposited data

How the results depend on the processing

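Counts of called block windows depended on every setting tried. DESeq2 gave 17, and it called 69.0% of all 1998 windows, against 56.7% in the block. Library totals gave 6 (23.0% against 20.0%). RLE gave 0 (6.46% of all windows), as did the replicate block (0.400%). All windows read in at least 2 libraries and counts under 13 set to 0 also gave 0 (0% of all windows each). Leaving out a library left 1 in its state, with the spread from the other state alone, so no count of windows is given for those fits. For the block as 1 bin, no setting passed the threshold. The log2 fold change turned to -0.68 with library totals and -0.27 with counts under 13 set to 0, was 0.15 with the replicate block and 2.10 with DESeq2 and with RLE, and with a library left out ran from -1.81 (without 3T3-L1-AD replicate 2) to 2.08 (without 3T3-L1-AD replicate 1). The cause was not tested. Same-numbered libraries deviated with a correlation of 0.0883 over 3344 bins and -0.000882 over 1998 windows. Windows listed in no library of a state, such as 14 of the 30 tested in the block, weaken such a correlation, so it cannot decide pairing. No pairing is labelled, and the numbers were not taken as pairs. Listed windows ran from 35 to 101 in 3T3-L1-PRE and 19 to 40 in 3T3-L1-AD with 1 replicate left out. In 3T3-L1-AD the mean was 19.5 with a minimum of 13 reads, 14.5 with 100 and 18.5 after thinning. Windows in both 3T3-L1-PRE replicates were 14 with a minimum of 100 reads, and in 3T3-L1-AD 3 and 1 with minimums of 13 and 100 reads. Windows of either replicate with the same or an adjacent one listed in the other, a wider quantity, were 60 in preadipocytes and 17 in adipocytes. The share of reads ran from 1.40% to 1.59% in 3T3-L1-PRE and 0.383% to 1.49% in 3T3-L1-AD with 1 replicate left out. Of all listed reads it was 0.282% in preadipocytes and 0.239% in adipocytes, and 3T3-L1-AD replicate 2, at 0.383%, was then the highest library. With 2 libraries per state and 6255 block reads in the shallowest, single windows cannot be compared firmly.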
